A study of Homo sapiens with 4 samples.

Results

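AP1AR-DT, a long non-coding RNA, was raised in SK-N-SH (a cell line from a human neuroblastoma), and RAD9A was read together with 8 genes that act with it in the ATR checkpoint. The members are RAD9A, RAD1, HUS1, RAD17, ATR, ATRIP, TOPBP1, CHEK1 and CLSPN, found by their symbol among the 24014 genes of the count table, and all 9 were present. RAD9A was chosen by its own fall in this comparison, so its values are a description and no test is built on them. Total RNA of wild-type SK-N-SH cells given an empty lentiviral vector (control, n = 2 libraries) was sequenced beside that of cells given a lentiviral vector for AP1AR-DT (AP1AR-DT_OE, n = 2 libraries). The vector treatment is common to both groups, so the groups differ by the insert. The labels do not say whether the 2 libraries of a group came from separate cultures or transductions, and the p-values then measure only the spread between these libraries.

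Cells copying their DNA watch for stretches of single-stranded DNA through the kinase ATR. RAD9A, RAD1 and HUS1 form a ring, the checkpoint clamp, that RAD17 with the small replication factor C subunits loads onto DNA at the edge of single-stranded stretches coated with RPA. The tail of RAD9A then binds TOPBP1, which switches on ATR and its partner ATRIP, and claspin (CLSPN) helps ATR to phosphorylate the kinase CHK1 (CHEK1), which slows the cell cycle and protects stalled forks.

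The libraries held 21988065 to 26184599 counts. Low values piled up at 4 (3287 entries, beside 2136 at 3 and 1509 at 5) and less so at 8 and 12. A pair of reads was therefore assumed to be worth about 4 counts, although values of 1, 2 and 3 also occurred. On that assumption 3 pairs (12 counts) were taken as the floor that an observation of 0 allows. All values below are normalized read counts (counts divided by the library's size factor) unless named otherwise. AP1AR-DT itself had 3 and 18 counts in the controls against 680 and 1065 in AP1AR-DT_OE (Log2FC = 6.63), in the direction of the labels. Adrenergic neuroblastoma markers summed to 20688 to 25418 normalized counts and mesenchymal markers to 118557 to 160491. DESeq2 called 33 of all 24014 genes (0.137%). It called 0 of the 7 adrenergic and 8 mesenchymal markers in the table, a count near that share. All of these markers had counts in every library. The largest difference among them was that of PRRX1, a mesenchymal factor, with 2432 and 14724 counts in control and 1131 and 2263 in AP1AR-DT_OE (Log2FC = -2.02, not called). In bulk RNA, fewer cells of a type and less RNA per cell cannot be told apart. The 2 libraries numbered 2 stood apart from those numbered 1 by GC content: over 13284 genes, Spearman's rho between GC content and the log2 ratio of number 2 to number 1 was -0.77 in control and -0.65 in AP1AR-DT_OE, which is given as a description.

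RAD9A (ENSG00000172613) stood at 298 and 220 in the controls and at 49.4 and 42.7 in AP1AR-DT_OE. Both AP1AR-DT_OE libraries lay below both controls, with no overlap. The group levels were 259 ± 55.5 and 46.0 ± 4.72 (SD, n = 2), a 5.63-fold lower level in AP1AR-DT_OE (Log2FC = -2.49, SE = 0.59, 95% interval -3.65 to -1.34). The log2 ratio of AP1AR-DT_OE to control was -2.60 between the libraries numbered 1 and -2.36 between those numbered 2. In raw counts RAD9A had 262 and 285 in control cells and 45 and 43 in AP1AR-DT_OE. At 4 counts a pair these are about 65.5 and 71.25 pairs of reads against 11.25 and 10.75, so the lower level rests on few reads but lies above the floor in both libraries.

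The value that chose RAD9A was its DESeq2 adjusted p of 0.0176 in this contrast, over all genes tested. DESeq2 called 33 of 24014 genes (0.137%), and 13 of them were lower in AP1AR-DT_OE (0.0541%). RAD9A had the smallest drop in Log2FC of those 13. Just inside the threshold of 0.05 lay RAD9A and, after it, ZNF490 (adjusted p = 0.0371 by DESeq2), and just outside it lay AC006547.15 (0.0523) and MEF2BNB-MEF2B (0.0538). The edgeR quasi-likelihood test gave RAD9A the same Log2FC with an adjusted p of 1, and DESeq2 on counts divided by 4 gave it an adjusted p of 0.609. The edgeR test with a replicate block did call RAD9A (Log2FC = -2.48, adjusted p = 0.00445). The call thus depends on the fit and on how many counts a pair of reads is worth, while the Log2FC ran from -2.69 to -2.26 when 1 library was left out.

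**Figure D1:**
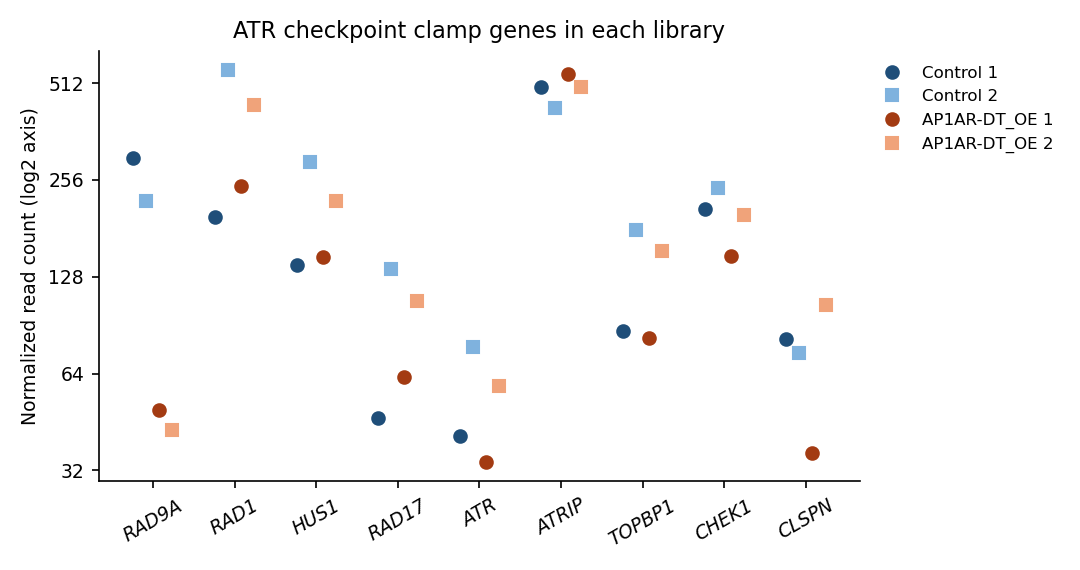
Normalized read counts (log2 axis) of the 9 members in each of the 4 libraries, with circles for number 1, squares for number 2, blue for control and orange for AP1AR-DT_OE. RAD9A is at 298 and 220 in control cells and 49.4 and 42.7 in AP1AR-DT_OE, while for 6 of the other 8 members the libraries of the groups interleave.

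RAD9A lies on chromosome 11, from 67317871 to 67398410 on the plus strand in the deposited GRCh38 coordinates, an interval of 80.54 kb. The RefSeq gene (GRCh38.p14) is much shorter, 6427 bases from 67391986 to 67398412, at the far end of that interval. The stretch of its promoter from -150 to -51 relative to the RefSeq start is shown because RAD9A is the member that stood apart, with the letters CACGTG, known as an E-box, in capitals (chr11:67391836-67391935, plus strand).
RAD9A promoter: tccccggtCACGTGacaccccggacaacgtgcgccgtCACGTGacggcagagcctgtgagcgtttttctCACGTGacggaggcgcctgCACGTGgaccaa
These letters occur 4 times, at 142, 113, 81 and 62 bases before the start. Both strands were searched, and CACGTG reads the same on each. Of 35116 RefSeq promoter windows of 300 bases, 7.26% held CACGTG at least once and 0.0142% (5 windows) at least 4 times. The windows of RAD1, RAD17, ATR, ATRIP, TOPBP1, CHEK1 and CLSPN held none. TTTNGCGC, the form bound by E2F factors that drive S-phase genes, occurred in the TOPBP1 window alone among the 8 members with an entry, and in 1.79% of all windows. GCGC, any base and then TGCGC is a form bound by NRF1, a factor the study examined at another gene. It occurred in none of the members' windows and in 5.78% of all windows. The NRF1 sequences that the paper predicts at that other gene do not hold these letters and were not searched for. Such matches are descriptions of letters, not binding sites.

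RAD1 and HUS1, which close the ring with RAD9A, gave no call. RAD1 (ENSG00000113456) had 196 and 561 in control cells and 245 and 439 in AP1AR-DT_OE. The AP1AR-DT_OE libraries lay between the controls, and in both groups the library numbered 2 was the higher. Its Log2FC was -0.15 (SE = 0.61, 95% interval -1.34 to 1.05, DESeq2 adjusted p = 1). HUS1 (ENSG00000136273) had 139 and 292 in control cells and 147 and 219 in AP1AR-DT_OE. Again both AP1AR-DT_OE libraries lay between the controls (Log2FC = -0.24, SE = 0.60, 95% interval -1.41 to 0.94, DESeq2 adjusted p = 1). For both, changes of the sizes inside the 95% interval are not excluded, and larger ones could also have gone uncalled.

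Within a library, RAD9A can be set against its ring partners without scaling between libraries. Counts were divided by the length in kb of each gene's longest coding transcript. On this scale RAD9A made up 61.5% and 32.3% of the 3 clamp genes in control cells and 18.7% and 10.7% in AP1AR-DT_OE. RAD1 made up 18.7% and 38.1% in control cells and 42.8% and 51.0% in AP1AR-DT_OE. HUS1 made up 19.9% and 29.7% in control cells and 38.6% and 38.3% in AP1AR-DT_OE. The share of RAD9A was thus lower in each AP1AR-DT_OE library than in each control, but the controls differed from each other by more than control 2 differed from AP1AR-DT_OE 1. The log2 ratio of RAD9A counts to RAD1 counts, not divided by length, was 0.61 and -1.35 in control cells and -2.31 and -3.36 in AP1AR-DT_OE. That of RAD9A to HUS1 was 1.10 and -0.41 in control cells and -1.57 and -2.36 in AP1AR-DT_OE. HUS1 to RAD1, the ratio that leaves RAD9A out, was -0.50 and -0.94 in control cells and -0.73 and -1.0 in AP1AR-DT_OE, and its groups overlap.

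**Figure D2:**
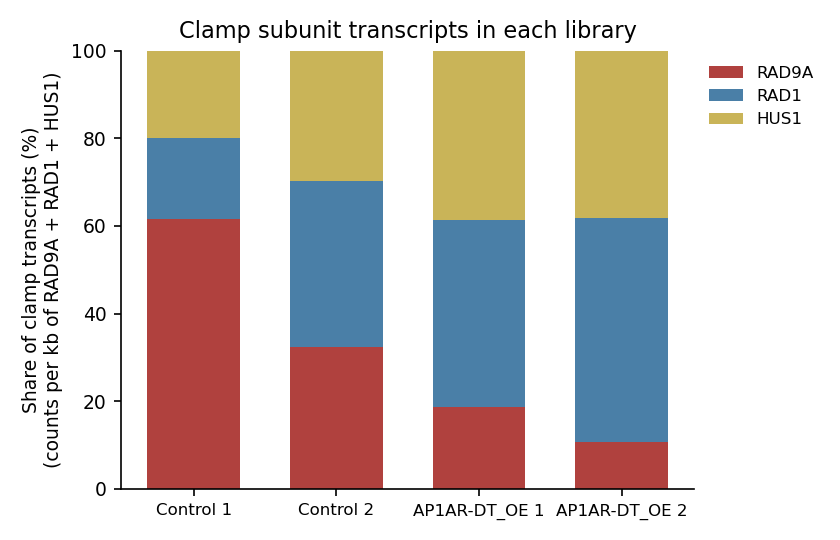
Share (%) of RAD9A, RAD1 and HUS1 in their summed counts per kb of transcript, 1 bar for each library. The RAD9A part is 61.5% and 32.3% in control cells and 18.7% and 10.7% in AP1AR-DT_OE.

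RAD17 (ENSG00000152942), the large subunit of the clamp loader, had 46.7 and 135 in control cells and 62.5 and 107 in AP1AR-DT_OE. The AP1AR-DT_OE libraries lay between the controls, and the Log2FC was -0.10 (SE = 0.75, 95% interval -1.57 to 1.37, DESeq2 adjusted p = 1). Its small partners RFC2 and RFC5 showed the largest differences of either sign among the clamp and loader genes other than RAD9A with a mean of at least 50. RFC2 had 1072 and 1062 in control cells and 1200 and 1326 in AP1AR-DT_OE (Log2FC = 0.24), and RFC5 had 254 and 361.8 against 362.0 and 440 (Log2FC = 0.38). In both genes the AP1AR-DT_OE libraries were above the controls, though for RFC5 control 2 and AP1AR-DT_OE 1 were all but equal, and neither was called by DESeq2. The paralogues RAD9B (2, 2, 3 and 0 counts in control 1, control 2, AP1AR-DT_OE 1 and AP1AR-DT_OE 2) and HUS1B (7, 18, 5 and 17 counts) lay at or near the floor of 12 counts, so no fold is given.

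ATR (ENSG00000175054), the kinase, had 41.0 and 77.1 in control cells and 34.0 and 58.6 in AP1AR-DT_OE (Log2FC = -0.35, SE = 0.81, 95% interval -1.95 to 1.24). The groups overlap, and the lower end of its interval was the lowest of the 8 members beside RAD9A. ATRIP (ENSG00000164053), which brings ATR to RPA, had 497 and 427 in control cells and 546 and 499 in AP1AR-DT_OE (Log2FC = 0.18, SE = 0.47, 95% interval -0.74 to 1.10). Both AP1AR-DT_OE libraries were above both controls, the higher control by a small margin. ATRIP shares 1448 bases of exon on the same strand with TREX1, a DNA exonuclease, and their summed counts (1771 and 1707 in the controls, 1705 and 1653 in AP1AR-DT_OE) gave a Log2FC of 0.07. TOPBP1 (ENSG00000163781), which docks on RAD9A and activates ATR, had 86.6 and 178 in control cells and 82.3 and 154 in AP1AR-DT_OE (Log2FC = -0.17, SE = 0.67, 95% interval -1.47 to 1.14), and the groups overlap. ETAA1, the other activator of ATR, had a Log2FC of -0.22 (-1.03 to 1.83 without 1 library), with a change of sign in 4 of 10 alternatives. None of the 7 genes of ATR, its activators and RPA was called by DESeq2 (adjusted p = 1 for each member among them), beside 0.137% called over all genes.

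CHEK1 (ENSG00000149554), the kinase that ATR activates, had 208 and 241 in control cells and 148 and 199 in AP1AR-DT_OE. Both AP1AR-DT_OE libraries were below both controls. The Log2FC was -0.37 (SE = 0.54, 95% interval -1.44 to 0.69), and its DESeq2 p of 0.492 before adjustment was the lowest of the 8 members other than RAD9A. CLSPN (ENSG00000092853), the mediator, had 82.0 and 74.1 in control cells and 36.2 and 104 in AP1AR-DT_OE. AP1AR-DT_OE 1 was below both controls and AP1AR-DT_OE 2 above both, with log2 ratios of -1.18 for number 1 and 0.49 for number 2 (Log2FC = -0.15, SE = 0.76, 95% interval -1.64 to 1.34). TIPIN, which with TIMELESS assists claspin at the fork, had the largest Log2FC of the mediators and effectors, 0.86, from 14.8 and 80.2 in control cells and 26.3 and 147 in AP1AR-DT_OE, and was not called. Without 1 library it ran from -0.88 to 2.56. TIPIN shares 579 of its 2739 exon bases on the same strand with RPL9P25, a processed pseudogene among the genes counted. CDC25C, a phosphatase that CHK1 restrains, had a Log2FC of 0.41 (-0.07 to 1.17 without 1 library) and was not called either.

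Of the 8 members other than RAD9A, DESeq2 called 0 at an adjusted p under 0.05, against 0.137% of all genes. By DESeq2, 0 had an unadjusted p under 0.05, beside 196 of all 24014 genes. By the edgeR quasi-likelihood test 0 did, beside 112 of 17027 genes. A count of 0 among 8 is near these low shares. By sign, 1 was higher and 7 were lower in AP1AR-DT_OE, with a median Log2FC of -0.16, beside a median of -0.02 over the 13298 genes with a mean of at least 50. The groups did not overlap in 2 of the 8, ATRIP above and CHEK1 below, where 9.45% of the 13298 genes show such separation in either direction. Leaving out control replicate 2 turned the sign of RAD1, HUS1, RAD17, ATR and TOPBP1 to positive. Leaving out AP1AR-DT_OE replicate 1 turned that of RAD1, HUS1, RAD17, TOPBP1 and CLSPN. Such a fit also leaves the replicate numbers unbalanced between the groups. Within replicate numbers 1 and 2, the log2 ratio was negative in both for ATR (-0.27 and -0.40) and TOPBP1 (-0.07 and -0.21). For RAD1, HUS1, RAD17 and CLSPN its sign differed between the numbers.

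**Figure D3:**
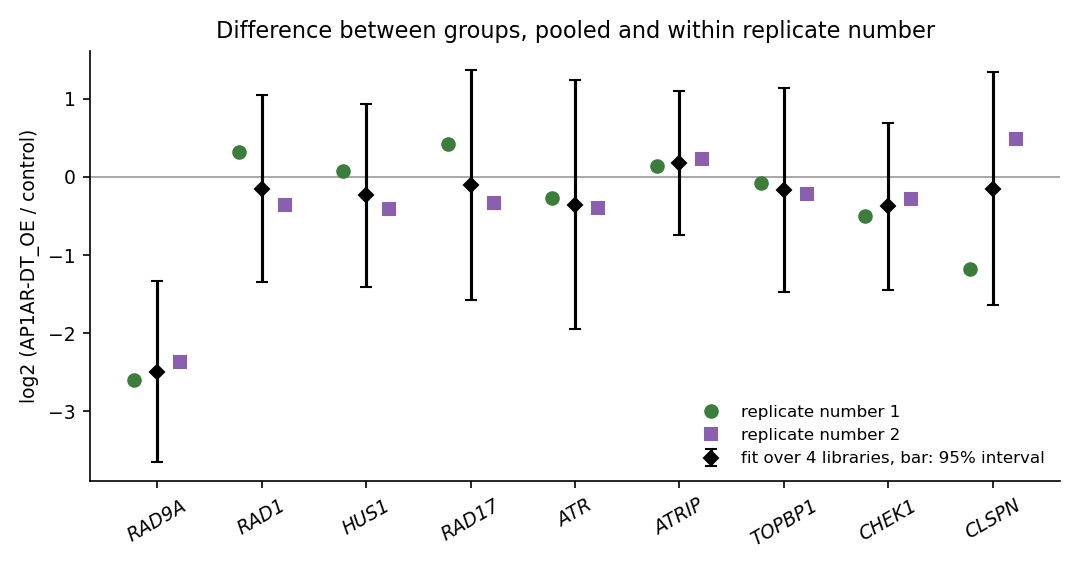
Log2 ratio of AP1AR-DT_OE to control for each member, as the DESeq2 estimate over 4 libraries (black diamonds, bars for the 95% interval) and within replicate number 1 (green circles) and number 2 (purple squares). The RAD9A interval runs from -3.65 to -1.34, and those of the other 8 members include 0.

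The wider ATR pathway was read from 3 lists that together hold 27 genes other than RAD9A, 25 of them with a mean of at least 50. Of these 25, 13 were higher and 12 lower in AP1AR-DT_OE, with a median Log2FC of 0.04. DESeq2 called 0 of them, beside 33 of all 24014 genes, and 0 had an unadjusted p under 0.05, beside 196 of all genes. The clamp and its loader without RAD9A had 4 higher and 4 lower of 8 (median -0.03), ATR with its activators and RPA had 3 higher and 4 lower of 7 (median -0.07), and the mediators and effectors of CHK1 had 6 higher and 4 lower of 10 (median 0.10). Genes of replication and mitosis, which mark cycling cells, had 14 higher and 5 lower of 19 with a median of 0.08, and 0 were called. Among them CDC45, part of the replicative helicase, had a Log2FC of -0.69 from 74.0 and 79.5 in control cells and 70.2 and 24.8 in AP1AR-DT_OE, and GINS2, another part, had 0.27. Without 1 library these ran from -1.63 to -0.14 for CDC45 and from 0.03 to 0.59 for GINS2.

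Compared per kb of transcript and averaged over the 4 libraries, ATRIP had the highest level of the members (108 ± 10.7 normalized counts per kb, SD, n = 4), followed by RAD1 (79.8 ± 37.7), RAD9A (73.1 ± 61.0), HUS1 (66.3 ± 23.7), CHEK1 (48.2 ± 9.30), RAD17 (27.2 ± 12.5), TOPBP1 (20.4 ± 7.83), CLSPN (8.71 ± 3.33) and ATR (6.46 ± 2.37). ATRIP shares exon sequence with TREX1, as given above, so its level may include reads of TREX1. Neighbours in this order from RAD1 to HUS1, RAD17 to TOPBP1, and CLSPN to ATR differed by less than the SD of either gene, which spans both groups. Split by group, RAD9A had 143 and 105 counts per kb in the controls, the highest member in control 1 and the second, after RAD1 with 124, in control 2. In AP1AR-DT_OE it had 23.7 and 20.5, below ATRIP, RAD1, HUS1 and CHEK1 in both libraries.

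Members also varied between the libraries of a group, and the ratio varied with their base composition. In control, 6 of the 9 members were higher in number 2 than in number 1, and in AP1AR-DT_OE 7 were. RAD17 (GC content 40.1%) was higher in number 2 by 1.53 on the log2 scale in control and by 0.78 in AP1AR-DT_OE, and RAD1 (39.6%) by 1.52 and 0.84. ATRIP (58.7%) and RAD9A (60.2%), the members with the highest GC content, were lower in number 2 in both groups, by a log2 ratio of -0.22 and -0.13 for ATRIP and -0.44 and -0.21 for RAD9A. Over the 9 members Spearman's rho between GC content and this ratio was -0.77 in control and -0.45 in AP1AR-DT_OE, close in control to the value over all genes given above. The members share the libraries, so this is a description. With a GC correction the Log2FC of RAD9A was -2.54.

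**Figure D4:**
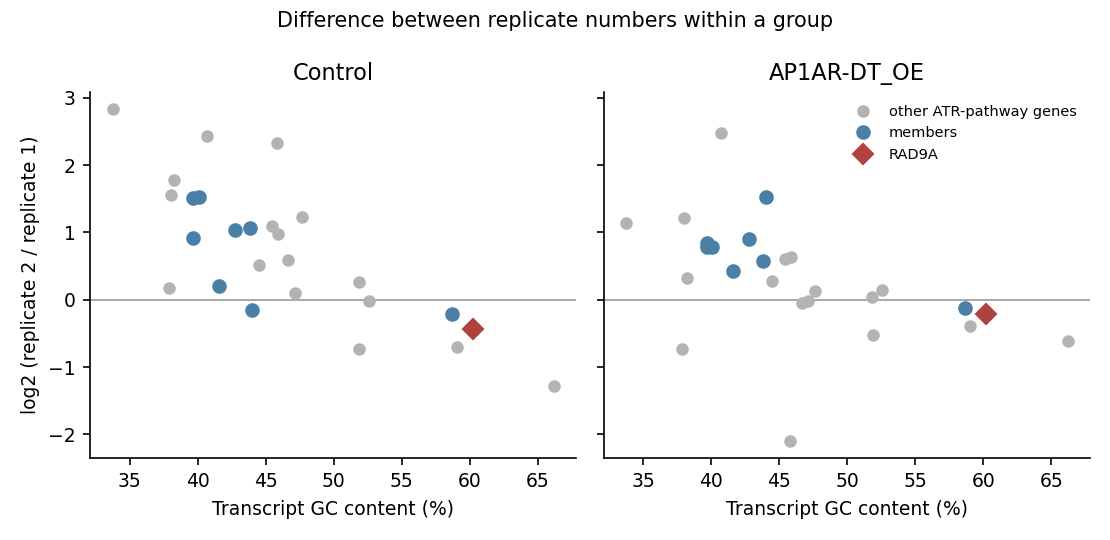
Log2 ratio of the library numbered 2 to that numbered 1 against transcript GC content (%), in control and in AP1AR-DT_OE, for RAD9A (red diamond), the other members (blue) and other genes of the 3 ATR lists with a mean of at least 50 (grey). RAD9A and ATRIP, at 60.2% and 58.7% GC, lie below 0 in both panels, and most members of lower GC lie above it.

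The genes around RAD9A were read to see whether the difference reached beyond it. Of 18 genes of the table within 100 kb of its listed interval, 14 had a mean of at least 50. Their Log2FC ran from -0.28 to 0.16 with a median of -0.002. DESeq2 called 0 of them, near the 0.137% called over all genes. Inside the listed interval lie POLD4, a subunit of DNA polymerase delta (Log2FC = 0.16), and CLCF1, a cytokine of the IL-6 family (Log2FC = -0.10). PPP1CA, a catalytic subunit of protein phosphatase 1, overlaps its end (Log2FC = 0.08). AP003419.11 (6, 0, 0 and 0 counts) and RN7SKP239 (4, 3, 0 and 0 counts) lie within it at or under the floor.

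In GENCODE v44lift37, PPP1CA is the gene of the table whose exons run into those of RAD9A, over 230 bases on the opposite strand. Per the labels the libraries were made with a TruSeq RNA kit that does not mark strand, so reads from this stretch cannot be assigned to one of the genes. PPP1CA had 5148 and 4711 counts in control cells and 5132 and 4475 in AP1AR-DT_OE. RAD9A had 5.09 and 6.05 counts per 100 counts of PPP1CA in control cells and 0.877 and 0.961 in AP1AR-DT_OE, so the groups stay apart on this scale too. The sum of RAD9A and PPP1CA gave a Log2FC of 0.02, and the sum over RAD9A and the 5 genes overlapping its listed interval gave 0.04. PPP1CA supplies most of these sums, and its normalized counts in the controls (5863 and 3634) differ by more than the whole level of RAD9A, so a shift of reads between them would not be detectable. Whether the assignment of reads between these genes has a part in the RAD9A difference was not tested. Summed with the gene on its own strand, RN7SKP239, RAD9A had a Log2FC of -2.51.

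**Figure D5:**
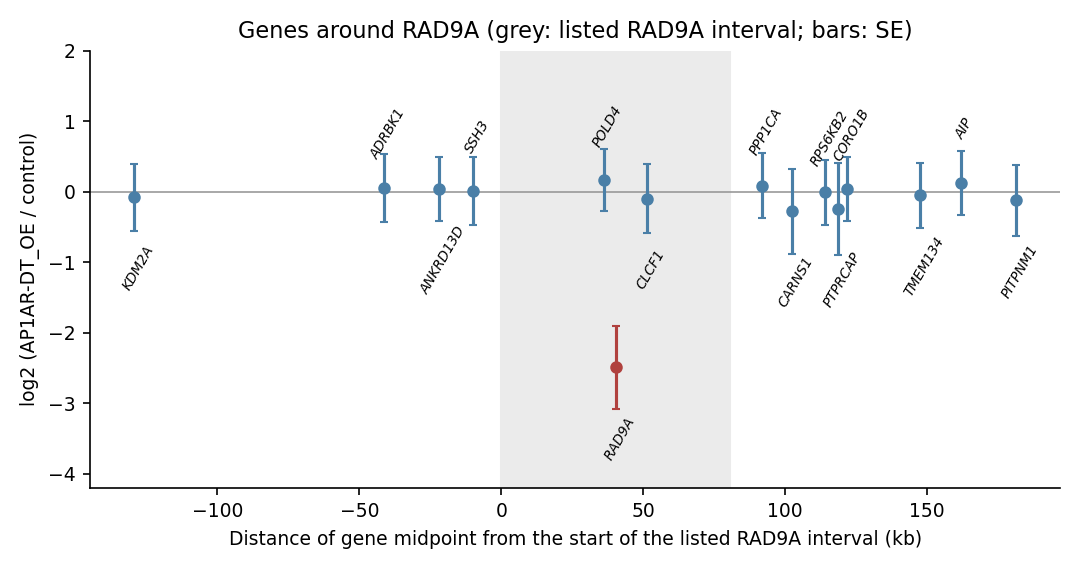
DESeq2 Log2FC (bars, SE) of RAD9A and of the 14 genes within 100 kb that reached a mean of 50, against the distance in kb of each gene's midpoint from the start of the listed RAD9A interval (grey band). The neighbours lie between -0.28 and 0.16 and RAD9A lies at -2.49.

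Of the other members, RAD17 shares 210 bases of exon with TAF9 on the opposite strand, CHEK1 shares 53 with STT3A on its own strand, CLSPN shares 280 with a non-coding gene and ATR shares 2048 with a processed pseudogene, both on the opposite strand. These overlaps are with genes of the table. With genes not in the table, CHEK1 shares 751 bases (a non-coding gene) and RAD17 380 (a second TAF9 entry), both on the opposite strand. ATR shares 497 on its own strand and TOPBP1 108 on the opposite strand, each with a non-coding gene. The counts of these members are uncertain to at least that extent. The pseudogene had more counts than ATR in every library, with 483 and 416 in control cells and 379 and 330 in AP1AR-DT_OE. ATR had 36 and 100 counts in control cells and 31 and 59 in AP1AR-DT_OE. RAD1 shares no exon sequence with the gene that overlaps it.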

How the data were processed

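The 2 control and 2 AP1AR-DT_OE RNA-seq libraries of SK-N-SH cells were grouped by their titles. For AP1AR-DT_OE replicate 2, the genotype and treatment labels give the RNA name with a different final number than the title. The title was followed, and AP1AR-DT had 1065 counts in that library. The authors deposited raw read counts per gene as whole numbers without normalization. The paper's methods name HISAT2 to hg19 and StringTie with its Python script, while the submitters' processing notes name TopHat2 2.0.4, HTSeq, Cuffdiff and edgeR 2.6.12, and the annotation is not given in the sources used here. Coordinates in the table are GRCh38. The deposited table also holds the authors' fold changes and p-values from DESeq2 and edgeR, which were not used.

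DESeq2 1.42.0 in R 4.3.3 (median-of-ratios size factors, Wald test, no covariate, two-sided, Benjamini-Hochberg adjustment over all 24014 genes) gave Log2FC, SE and p, with a call at an adjusted p under 0.05. The procedure was tested on simulated data. Intervals are 95% Wald intervals. Transcript length, GC content and exon overlap were read from GENCODE v44lift37 (gene IDs of 23954 genes matched). For the members, length was that of the longest coding transcript. Another choice of transcript would change the values per kb and could change their order. Promoter sequence came from RefSeq (GRCh38.p14) for 8 of the 9 members. HUS1 had no entry.

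The members, the gene lists and the tests were chosen with earlier results of these data known. Genes named were the members, AP1AR-DT, genes overlapping RAD9A, called list genes, the 2 genes of largest absolute Log2FC in each list (mean of at least 50), and the 5 nearest to RAD9A in centred log2(normalized count + 1). RHNO1, RAD9B, HUS1B, MDC1 and the genes overlapping others were named after their values were seen. Other settings tried were edgeR 4.0.16 (quasi-likelihood), TMM factors, a filter of 10 counts in 2 libraries, DESeq2 without independent filtering or with a likelihood-ratio test, a block for replicate number, counts divided by 4, a GC correction (lowess span 0.3), sums over overlapping genes, a prior count of 1 and leaving out each library. The sums with PPP1CA alone and with TREX1 were added after seeing the data. Floors cover counting error only, since PCR copies are not independent molecules.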

Additional observations from a re-analysis of the deposited data

How the results depend on the processing

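The Log2FC of RAD9A kept its sign in all fits of RAD9A alone and ran from -2.69 to -2.26 when 1 library was left out. It was not called by the edgeR quasi-likelihood test (-2.49, adjusted p = 1) or with counts divided by 4 (-2.50, adjusted p = 0.609). Summed with the genes overlapping its interval it was 0.0392 and summed with PPP1CA 0.0211, as PPP1CA supplies most of those counts. The 33 calls over all genes became 0 in edgeR, where 112 genes had p under 0.05 before adjustment, 15 with counts divided by 4, 55 with the GC correction and 59 with the GC correction and replicate block, and the cause was not tested. The other settings gave 24 to 44 calls.

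None of the other 8 members was called under any alternative that gave a p-value. Over all genes these alternatives called from 0 of 17027 to 59 of 24014, so 0 of 8 is near such shares. RAD1 was 0.0385 with the GC correction and 0.0524 with that and the block. RAD17 was 0.0317 with the replicate block, 0.0122 in edgeR with the block, 0.0871 with the GC correction and 0.11 with both. Leaving out 1 library gave -0.72 to 0.81 for RAD1, -0.67 to 0.41 for HUS1, -0.67 to 0.87 for RAD17, -0.82 to 0.19 for ATR, -0.70 to 0.46 for TOPBP1 and -1.12 to 0.41 for CLSPN. ATRIP stayed between 0.08 and 0.29 and CHEK1 between -0.61 and -0.18. The median of the list of PCNA and the other clamp loaders was 0.0007 for genes with a mean of at least 50 and -0.0780 for all its genes.

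The difference between groups in the log2 ratio of RAD9A to RAD1 ran from -3.44 to -1.48 without 1 library, and that to HUS1 from -3.07 to -1.56.

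Same-numbered libraries deviated together (correlation 0.41 over 16730 genes, 2 pairs), but the labels tie the numbers to no shared batch. The replicate block gave 37 calls, 16 of them shared with the 33, and RAD9A a Log2FC of -2.48 (adjusted p = 0.00085 by DESeq2).

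With 2 libraries a group, differences of the other members within their 95% intervals were not detectable.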

Other observations

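Outside the ATR branch, the genes of the related checkpoint pathways gave 0 calls by DESeq2, near the 0.137% called over all genes. In the ATM branch, which senses double-strand breaks, 3 genes were higher and 5 lower in AP1AR-DT_OE among the 8 with a mean of at least 50, with a median Log2FC of -0.15. RAD50 (Log2FC = -0.38) and NBN (-0.31), partners in the complex that holds broken ends, had the largest values, and MDC1 had 0, 4, 0 and 0 counts. PCNA, the sliding clamp of replication, and the loaders other than RAD17 had 3 higher and 2 lower of 5, with a Log2FC of -0.21 for PCNA and 0.16 for RFC1. Among p53 targets, 1 was higher and 8 lower of 9 with a median of -0.13, led by SESN1 (-0.28) and PPM1D (-0.25). When 1 library was left out, the sign turned for each gene named here with a Log2FC: RAD50 ran from -1.21 to 0.57, NBN from -0.91 to 0.66, PCNA from -0.73 to 0.48, RFC1 from -0.28 to 0.81, SESN1 from -0.71 to 0.37 and PPM1D from -0.69 to 0.22. Among genes with a mean of at least 50, the lowest unadjusted DESeq2 p in these 3 lists was 0.597.

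RHNO1, which binds the checkpoint clamp, had 213 counts in control 1 and 1582 in control 2 against 1110 in AP1AR-DT_OE 1 and 286 in AP1AR-DT_OE 2. High and low libraries thus fell 1 in each group, the Log2FC was 0.04, and it ran from -1.37 to 1.64 when 1 library was left out. RHNO1 shares 60 bases of exon on the same strand with TULP3, which had 1110, 1337, 1342 and 1028 counts in the same order.

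The 5 genes nearest to RAD9A in pattern over the 4 libraries, by Euclidean distance between log2(normalized count + 1) values centred on each gene's mean, were ALG1L9P (0.49), SRXN1 (0.65), TMEM110 (0.73), RSPH9 (0.77) and ZBED5-AS1 (0.95). With 4 libraries, any gene that is lower in both AP1AR-DT_OE libraries by a like amount comes close. Of the 5, 3 share same-strand exon sequence with another gene of the table. SRXN1, which encodes sulfiredoxin, had 2628 and 3162 counts in control cells and 293 and 317 in AP1AR-DT_OE, while ENSG00000270299, with which it shares 2292 bases on the same strand, had 7 and 3 against 2582 and 1902. Their sum was 2635 and 3165 against 2875 and 2219. TMEM110 had 1441 and 1216 counts against 375 and 319, and summed with TMEM110-MUSTN1 it had 1507 and 1664 against 1559 and 1166. RSPH9 had 926 and 831 against 251 and 231, and summed with MRPS18A, which shares 705 bases on the opposite strand, it had 1031 and 959 against 909 and 774. Divided by the size factors, the sums of the groups overlap for SRXN1, TMEM110 and RSPH9. ALG1L9P, a pseudogene, had 113 and 115 counts against 12 and 17, and 138 and 119 against 20 and 31 when summed with CTD-2313N18.5. ZBED5-AS1 had 159 and 140 counts against 19 and 10, and with ZBED5 on the opposite strand the sums were 285 and 561 against 146 and 221. The sums were formed after the values were seen. In GENCODE v44lift37, RAD9A itself shares exon sequence with PPP1CA alone among the genes of the table. The annotation used for counting is not given, so overlaps of RAD9A in that annotation were not tested.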
